A study of Mus musculus with 8 samples.

Results

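Fatty acid oxidation genes and the mitochondrial carrier gene Ucp2 were examined in mRNA of the central amygdala, an output nucleus of the amygdala with roles in threat responses and appetite, from 129SV mice aged 7 months. The high fat group had received a high fat diet for 20 weeks and the chow group a normal chow diet for 20 weeks, with 4 libraries each, named here by the title numbers 1, 2, 5 and 8. No other genotype or treatment is given in the labels, and whether the libraries of a diet came from separate animals is not stated. The p-values therefore reflect spread among these libraries alone, and that spread may be technical. The 9 genes were taken by symbol from the 18983 genes of the deposited count table: Cpt1a, Cpt1c, Cpt2, Acadl, Acadm, Hadha, Ehhadh, Ppara and Ucp2. All 9 passed the filter on low counts, which kept 15186 genes.

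Long-chain fatty acids enter mitochondria as carnitine esters, made at the outer membrane by CPT1 enzymes and turned back to acyl-CoA at the inner membrane by CPT2, and are then shortened stepwise by acyl-CoA dehydrogenases and the trifunctional protein. Peroxisomes run a parallel pathway with its own enzymes, and the nuclear receptor PPARA switches many of these genes on when fatty acids are abundant, as is best known from liver. In brain most fatty acid oxidation is attributed to astrocytes, while neurons carry the isoform CPT1C, which lies in the endoplasmic reticulum and has little transferase activity. UCP2 is an inner membrane carrier linked to fuel choice and reactive oxygen species, and is known in brain from microglia and some neurons.

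PPARA binds as a dimer with a retinoid X receptor to repeats of the hexamer AGGTCA spaced by a single base, so the sequences before the start sites were searched for that hexamer on both strands. Windows of 300 bases, 250 before and 50 after the RefSeq start (GRCm38.p6, the same assembly as mm10), were found for 9 of 9 genes. The hexamer occurred in 3 of the 9 windows, those of Cpt1a, Cpt1c and Acadm, and in 16.3% of all 32851 windows. The direct repeat of the hexamer with a single base of any kind between the copies, which contains the hexamer, occurred in 0 of the 9 windows and in 13 of all windows (0.0396%). A repeat this rare is hardly ever met in 9 windows, so its absence does not show that PPARA sites are lacking. Sequences that differ from the exact repeat, or lie outside the windows, were not searched. The windows with the hexamer are shown with that of Ucp2, the gene with the widest range of values, as the bases before the start that no annotated GENCODE exon covers. For Cpt1a the RefSeq start lies inside the GENCODE gene, which begins at 3322334, so the bases shown are within that annotated gene. Each is written 5′ to 3′ on the strand of the gene, with the hexamer or its reverse complement TGACCT in capitals.
Cpt1a (chr19:3323051-3323284, plus strand): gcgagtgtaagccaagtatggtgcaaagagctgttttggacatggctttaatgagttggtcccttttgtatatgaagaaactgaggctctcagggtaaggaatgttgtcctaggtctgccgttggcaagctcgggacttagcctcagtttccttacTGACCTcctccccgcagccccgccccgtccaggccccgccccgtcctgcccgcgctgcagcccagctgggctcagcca
Cpt1c (chr7:44974852-44975101, minus strand): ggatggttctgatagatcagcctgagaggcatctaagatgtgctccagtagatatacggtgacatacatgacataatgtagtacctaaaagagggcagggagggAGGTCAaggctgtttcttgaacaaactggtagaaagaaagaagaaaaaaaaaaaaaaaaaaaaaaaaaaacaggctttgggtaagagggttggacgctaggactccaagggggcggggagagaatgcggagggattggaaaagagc
Acadm (chr3:153944644-153944893, minus strand): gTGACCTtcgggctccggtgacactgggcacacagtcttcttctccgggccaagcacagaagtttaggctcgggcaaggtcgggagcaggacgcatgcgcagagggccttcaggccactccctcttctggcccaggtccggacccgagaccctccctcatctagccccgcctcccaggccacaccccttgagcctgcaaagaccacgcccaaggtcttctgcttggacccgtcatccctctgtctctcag
Ucp2 (chr7:100493108-100493336, plus strand): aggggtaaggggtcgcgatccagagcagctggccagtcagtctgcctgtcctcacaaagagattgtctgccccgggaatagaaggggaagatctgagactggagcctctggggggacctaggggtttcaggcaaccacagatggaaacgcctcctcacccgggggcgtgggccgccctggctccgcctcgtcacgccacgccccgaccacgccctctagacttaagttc

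Hadha and Hadhb, which encode the alpha and beta subunits of the trifunctional protein, are transcribed away from each other, and their GENCODE starts are separated by 85 bases (chr5:30155163-30155247, plus strand). This gap is shown because both genes start at it. It held neither the hexamer nor its reverse complement.
Hadha-Hadhb: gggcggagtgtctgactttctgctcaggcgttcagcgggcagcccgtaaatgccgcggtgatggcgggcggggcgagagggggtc

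Library totals were 17451111 to 19562368 counts, and no pair of libraries within a diet agreed within sampling noise (chi-square over its degrees of freedom from 16.2 to 198). The libraries differed in the summed CPM (counts scaled to library size) of marker genes of the tissue and its neighbours. All 10 markers of the central amygdala neuron list were detected in every library, at a summed 1152 to 1883 CPM with high fat diet and 1171 to 2873 CPM with chow. That list includes genes of GABA neurons in general, so its sum is not specific to this nucleus. Markers of basolateral and cortical excitatory neurons summed to 955 to 2746 CPM with high fat diet, to 1939 CPM in chow replicate 2 and to 185 to 425 CPM in chow replicates 1, 5 and 8. Chow replicate 1 stood apart with 6635 CPM of choroid plexus markers and 248 CPM of ependymal markers, against 92.6 to 3134 and 13.7 to 42.3 CPM in the other 7 libraries. All but 1 of the listed markers were detected in every library, Shox2 of the thalamic list being at 0 in at least 1. In such bulk samples, fewer cells of a type and less RNA per cell cannot be told apart.

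The diets were compared for each gene in the 8 libraries. By edgeR's quasi-likelihood test with Benjamini-Hochberg adjustment, 0 of the 9 genes passed an adjusted p of 0.05, and 0 of 15186 tested genes did (0%). At an unadjusted p under 0.05 there was 1 of the 9, Ehhadh, against 4.27% of all tested genes (649). Ehhadh was lower with high fat diet, as were 2.63% of all tested genes at that level, while 1.65% were higher. DESeq2 and limma-voom called 0 genes each, with 990 and 652 at an unadjusted p under 0.05, of which 2 (Ehhadh and Cpt2) and 0 were among the 9. Of the 9 log2 folds of high fat over chow, 8 were below 0 and that of Cpt1c was above 0, with a median of -0.31, beside 51.8% below 0 and a median of -0.012 over all tested genes. The diets overlapped in CPM for 9 of 9 genes, and did not overlap for 1.36% of all tested genes. Chow replicate 1 was the highest of the 8 libraries for 8 of the 9, all but Cpt1c, and for 33.2% of all tested genes. Without it the median log2 fold of the 9 was -0.096 and 7 were below 0, and at an unadjusted p under 0.05 there were 0 of the 9 and 4.87% of all tested genes.

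**Figure D1:**
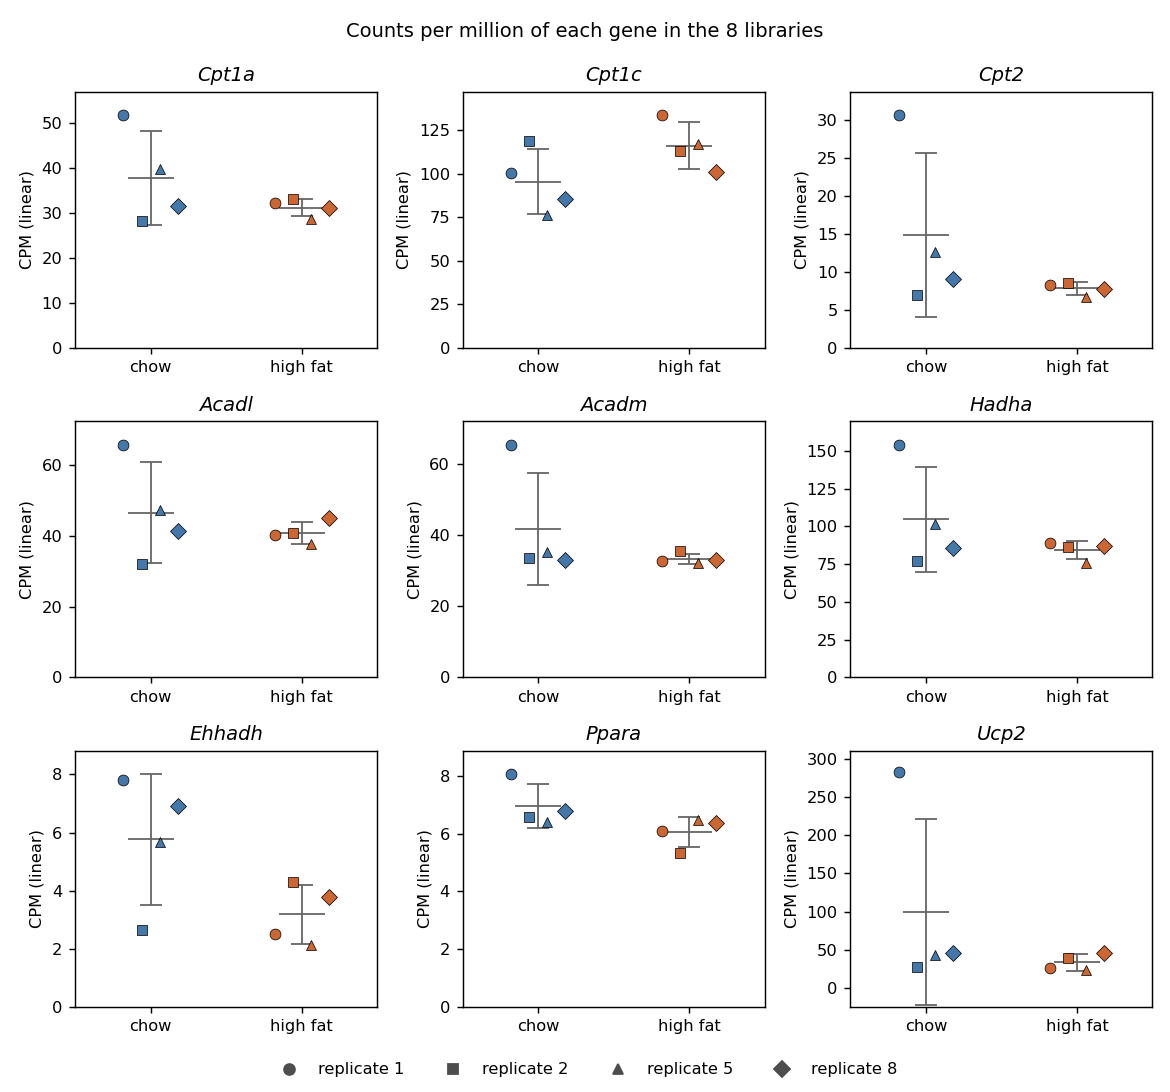
CPM of each gene (linear axes) in the chow and high fat libraries, with a symbol for each title number and the mean with SD (n = 4) as bars. Chow replicate 1 is the highest point in every panel except Cpt1c, and Ucp2 there is at 283 CPM beside 23.2 to 45.4 CPM in the other 7 libraries.

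Of the carnitine palmitoyltransferase genes, Cpt1c had the highest transcript level. Cpt1c (Entrez 78070; chromosome 7, 44959372 to 44974851, mm10) measured 134, 113, 117 and 101 CPM with high fat diet, in the order 1, 2, 5 and 8 used throughout. In the chow libraries of the same numbers it measured 101, 119, 76.4 and 85.4 CPM. Chow replicates 1, 5 and 8 lay below all 4 high fat libraries, replicate 1 by less than a single CPM, and chow replicate 2 lay among them. Its log2 fold was 0.29 ± 0.16 (SE; adjusted p = 0.753 by edgeR), the only positive value of the 9. An antisense gene overlaps Cpt1c in GENCODE and the strand setting of the counting is not given, so reads of the pair cannot be told apart.

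Cpt1a, the isoform that sets the rate of long-chain fatty acid entry in liver and in astrocytes (Entrez 12894; chromosome 19, 3322334 to 3385733), was at 32.1, 33.0, 28.5 and 31.0 CPM with high fat diet. The chow libraries had 51.6, 28.3, 39.7 and 31.5 CPM. Chow replicates 1 and 5 lay above every high fat library, and replicates 2 and 8 lay below or among them. The log2 fold was -0.28 ± 0.19 (SE; adjusted p = 0.754 by edgeR), and -0.096 ± 0.13 without chow replicate 1. The muscle isoform Cpt1b was at 1.46 to 3.52 CPM over the 8 libraries.

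Per kilobase of transcript, Cpt1c was 5.54 to 7.07 times as high as Cpt1a in the high fat libraries. In chow it was 3.31, 7.15, 3.27 and 4.61 times as high in replicates 1, 2, 5 and 8. Chow replicates 1, 5 and 8 thus had smaller ratios than any high fat library, while chow replicate 2 had the largest of all 8. Of the summed level of Cpt1a, Cpt1b and Cpt1c per kilobase, Cpt1c made up 75.0% (chow replicates 1 and 5) to 86.9% (high fat replicate 1). This ratio was chosen after the values were seen and was not tested.

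Cpt2, the inner membrane transferase (Entrez 12896; chromosome 4, 107903981 to 107923610), was at 8.28, 8.58, 6.64 and 7.79 CPM with high fat diet. In chow the values were 30.6, 6.90, 12.6 and 9.12 CPM. Chow replicates 1, 5 and 8 lay above all high fat libraries, with replicate 1 at 3.70 times the median of the other 7 libraries. Its log2 fold was -0.92 ± 0.43 (SE; adjusted p = 0.753 by edgeR), and -0.29 ± 0.21 without chow replicate 1 (adjusted p = 0.661).

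The acyl-CoA dehydrogenases take the first step of the oxidation spiral. Acadl, for long chains in the mouse (Entrez 11363; chromosome 1, 66830839 to 66863277), was at 40.2, 40.8, 37.6 and 45.1 CPM with high fat diet. The chow values were 65.8, 31.9, 47.4 and 41.3 CPM. The chow libraries held both the highest and the lowest value, replicates 1 and 2. Its log2 fold was -0.19 ± 0.21 (SE; adjusted p = 0.811 by edgeR) and turned to 0.019 ± 0.14 without chow replicate 1, a change of direction with neither value past the threshold. A processed pseudogene lies inside Acadl on the same strand, and it is not in the count table.

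Acadm, for medium chains (Entrez 11364; chromosome 3, 153922357 to 153944632), was at 32.7, 35.3, 32.0 and 32.9 CPM with high fat diet. With chow it was at 65.3, 33.6, 35.1 and 32.8 CPM. Apart from chow replicate 1 it was the steadiest of the 9, with a coefficient of variation of 3.72% over the other 7 libraries, and with 30.1% over all 8. Its log2 fold of -0.33 ± 0.23 (SE; adjusted p = 0.754 by edgeR) was -0.031 ± 0.073 without chow replicate 1.

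Hadha, the trifunctional protein subunit with hydratase and long-chain dehydrogenase activities (Entrez 97212; chromosome 5, 30118304 to 30155162), was at 88.6, 86.5, 75.4 and 87.2 CPM with high fat diet. On chow it measured 154, 77.2, 102 and 85.4 CPM. Chow replicates 1 and 5 lay above the high fat libraries and the other chow libraries lay within their range. The log2 fold was -0.31 ± 0.21 (SE; adjusted p = 0.754 by edgeR), and -0.067 ± 0.11 without chow replicate 1. Its divergent neighbour Hadhb, with the thiolase activity, was at 88.8, 79.2, 72.5 and 93.5 CPM with high fat diet and at 125, 67.3, 118 and 95.1 CPM with chow. Hadhb had a log2 fold of -0.28 ± 0.20 (adjusted p = 0.754 by edgeR), close to that of Hadha over all 8 libraries. Without chow replicate 1 it was -0.17 ± 0.19 for Hadhb, against -0.067 for Hadha. Garem2, at 20.1 to 36.9 CPM, overlaps Hadha by 75 bases on the opposite strand, and reads of that stretch cannot be told apart. As a description over the 8 libraries, which differ in diet and in tissue markers, Pearson's r of log2 CPM between Hadha and Hadhb was 0.844, and 0.923 over the 7 libraries without chow replicate 1.

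Ehhadh, the bifunctional enzyme of peroxisomal oxidation and a known PPARA target in liver (Entrez 74147; chromosome 16, 21761287 to 21787807), was at 2.52, 4.29, 2.12 and 3.79 CPM with high fat diet. With chow it was at 7.81, 2.65, 5.67 and 6.91 CPM. Chow replicates 1, 5 and 8 lay above all 4 high fat libraries and chow replicate 2 lay among them. Its log2 fold was -0.86 ± 0.37 (SE; adjusted p = 0.753 by edgeR) on 39 to 151 counts per library. It depended least on chow replicate 1 of the genes with negative folds over 0.5 in size (Cpt2, Ehhadh and Ucp2), at -0.68 ± 0.38 without that library (adjusted p = 0.659).

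Ppara itself (Entrez 19013; chromosome 15, 85734983 to 85802819) was at 6.10, 5.34, 6.47 and 6.37 CPM with high fat diet. Its chow values were 8.07, 6.57, 6.40 and 6.80 CPM. High fat replicate 2 and chow replicate 1 were the extremes, and the remaining 6 libraries lay between 6.10 and 6.80 CPM. The log2 fold was -0.20 ± 0.16 (SE; adjusted p = 0.760 by edgeR), and -0.12 ± 0.13 without chow replicate 1.

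Ucp2 (Entrez 22228; chromosome 7, 100493337 to 100502020) was at 25.7, 39.3, 23.2 and 45.4 CPM with high fat diet. With chow it was at 283, 26.8, 43.1 and 45.4 CPM. A single library, chow replicate 1, stood at 7.18 times the median of the other 7, and chow replicates 2, 5 and 8 lay within or at the edge of the high fat range. The log2 fold of -1.57 ± 0.72 (SE; adjusted p = 0.753 by edgeR) was the largest in size of the 9, and it was -0.21 ± 0.28 without chow replicate 1 (adjusted p = 0.789). DESeq2 gave no p for Ucp2, and its log2 fold there was -1.57, while limma-voom gave -0.95 ± 0.66 and edgeR with the title number as a block -0.85 ± 0.69. The authors' deposited table gives a mean TPM of 55.9 with high fat diet and 146 with chow, and the chow mean contains that library.

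Dnajb13, a gene of motile cilia and sperm on the opposite strand, overlaps the end of Ucp2 by 305 bases. It was at 0.336 to 0.770 CPM in 7 libraries and at 8.28 CPM in chow replicate 1. The strand setting of the counting is not given, so reads of the overlap cannot be told apart between Dnajb13 and Ucp2. Markers of several cell types were highest in chow replicate 1. The 7 choroid plexus markers and the 6 ependymal markers were each highest in chow replicate 1, as were 8 of 8 striatal, 8 of 10 microglial and 4 of 4 blood cell markers. Striatal markers summed to 2960 CPM in chow replicate 1 and 204 to 1656 CPM elsewhere, microglial markers to 666 and 329 to 579 CPM, and blood cell markers to 2197 and 165 to 686 CPM. The sum of the astrocyte markers was lowest there, at 3806 CPM against 4038 to 5250 CPM, although 2 of the 10 were highest in that library. High fat replicate 2 had the second highest choroid plexus sum, 3134 CPM, with Ucp2 at 39.3 CPM. The ependymal sum and Ucp2 were both lowest in high fat replicate 5 (13.7 and 23.2 CPM). Both were highest in chow replicate 1 (248 and 283 CPM). Next lowest for each were high fat replicate 1 (26.8 and 25.7 CPM) and chow replicate 2 (26.3 and 26.8 CPM). High fat replicate 2 had 42.3 and 39.3 CPM, and high fat replicate 8 had 39.9 and 45.4 CPM. Chow replicate 5 had 36.4 and 43.1 CPM, and chow replicate 8 had 41.2 and 45.4 CPM. Microglial markers, highest in chow replicate 1, were likewise lowest in high fat replicates 5 and 1 and chow replicate 2 (331, 373 and 329 CPM). High fat replicates 2 and 8 had 404 and 418 CPM of them, and chow replicates 5 and 8 had 579 and 492 CPM. The ependymal list was thus not the only one to vary much as Ucp2 did. The part of these markers in the values of the 8 genes highest in chow replicate 1 was not tested.

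**Figure D2:**
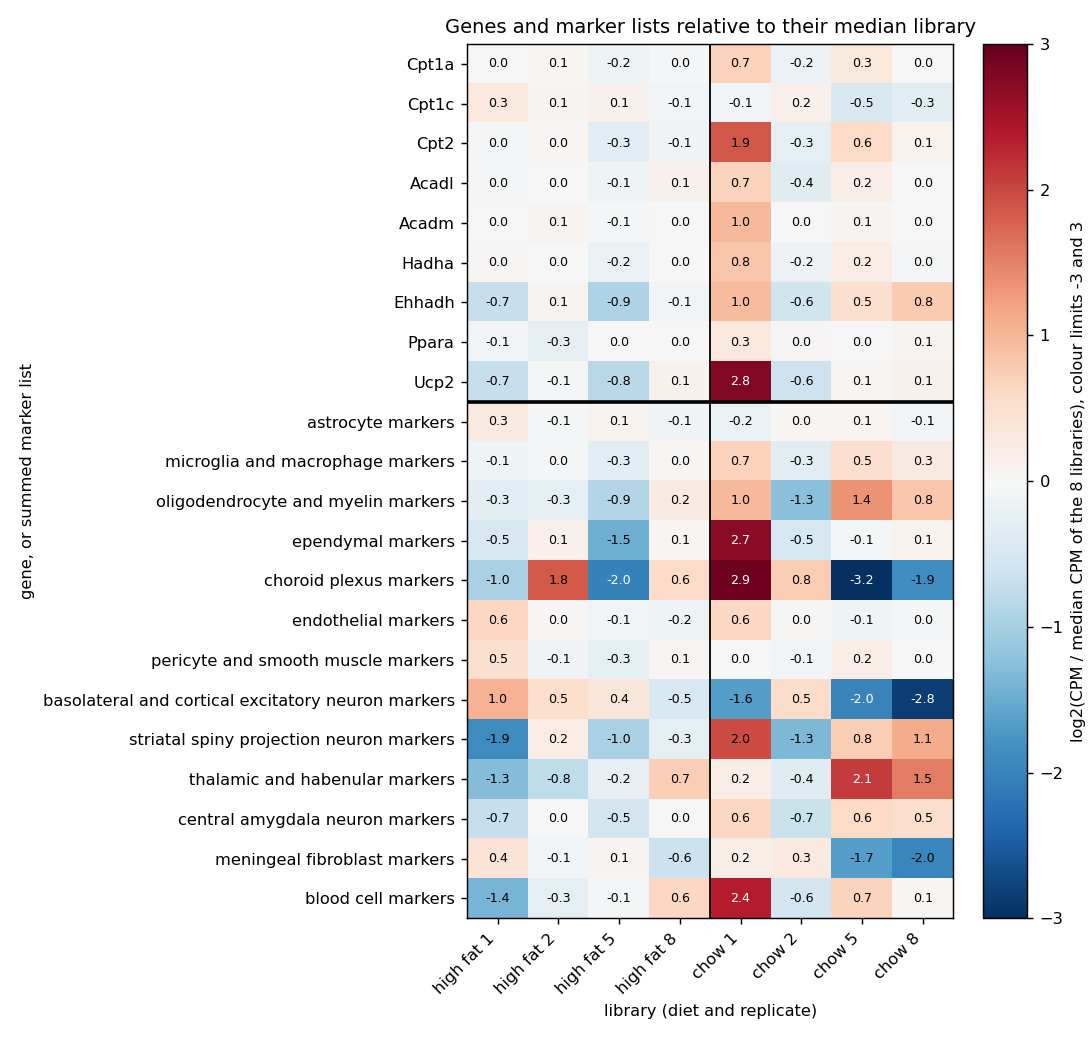
log2 ratio of CPM to the median CPM of the 8 libraries for each gene (upper rows) and for the summed CPM of each marker list (lower rows), by library. The column of chow replicate 1 is above the median for 8 of the 9 genes, and in it Ucp2, choroid plexus, ependymal, blood cell and striatal markers are the rows farthest above.

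The excitatory marker sum of chow replicate 2 lay among the high fat libraries. Leaving out such a library can by itself set the diets further apart. Without chow replicate 2 the diets were separate in CPM for 3 of the 9 genes, beside 20.4% of all tested genes (1.36% with all 8 libraries). These were Cpt1c, higher with high fat diet, and Cpt2 and Ehhadh, lower. Their log2 folds were then 0.41 ± 0.15, -1.16 ± 0.38 and -1.09 ± 0.29 (SE), with adjusted p of 0.187, 0.156 and 0.0963 by edgeR. In that setting 0 of the 9 genes passed and 116 of all tested genes did (0.758%), and at an unadjusted p under 0.05 there were 4 of the 9 (Cpt1c, Cpt2, Ehhadh and Ucp2) and 19.4% of all. With chow replicates 1 and 2 left out together, Cpt1c had 0.52 ± 0.13 (adjusted p = 0.0710), Ehhadh -0.98 ± 0.30 (adjusted p = 0.0978) and Cpt2 -0.47 ± 0.18 (adjusted p = 0.154). In that setting 0 of the 9 and 2.92% of all tested genes passed, and 3 of the 9 (Cpt1c, Ehhadh and Cpt2) and 26.1% of all had an unadjusted p under 0.05. Ucp2 was at -0.41 ± 0.26 there (adjusted p = 0.362). The 2 chow libraries then left were those with the lowest excitatory marker sums of all 8, at 329 and 185 CPM. They also had the highest thalamic marker sums, 399 and 272 CPM against 37.8 to 156 CPM. With chow replicates 5 and 8 left out instead, Cpt1c fell to 0.082 ± 0.17 (adjusted p = 0.859 by edgeR). Ehhadh was then at -0.72 ± 0.49, Cpt2 at -1.26 ± 0.50 and Ucp2 at -2.21 ± 0.75 (adjusted p = 0.772 each by edgeR). Cpt1c was at 0.19 ± 0.16 without chow replicate 5 alone and at 0.21 ± 0.17 without high fat replicate 1 alone.

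Chow replicates 1, 5 and 8, which lay on one side of all high fat libraries for Cpt1c, Cpt2 and Ehhadh, did so for the summed CPM of 5 marker lists as well. Central amygdala neuron markers summed to 2709 to 2873 CPM in these 3 and to 1152 to 1883 CPM with high fat diet, and striatal markers to 1284 to 2960 and 204 to 891 CPM. Microglial markers summed to 492 to 666 and 331 to 418 CPM, and oligodendrocyte markers to 13741 to 19627 and 4180 to 9028 CPM. Excitatory neuron markers were lower in these 3, at 185 to 425 CPM against 955 to 2746 CPM. The part of these markers in the values of the 3 genes was not tested.

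**Figure D3:**
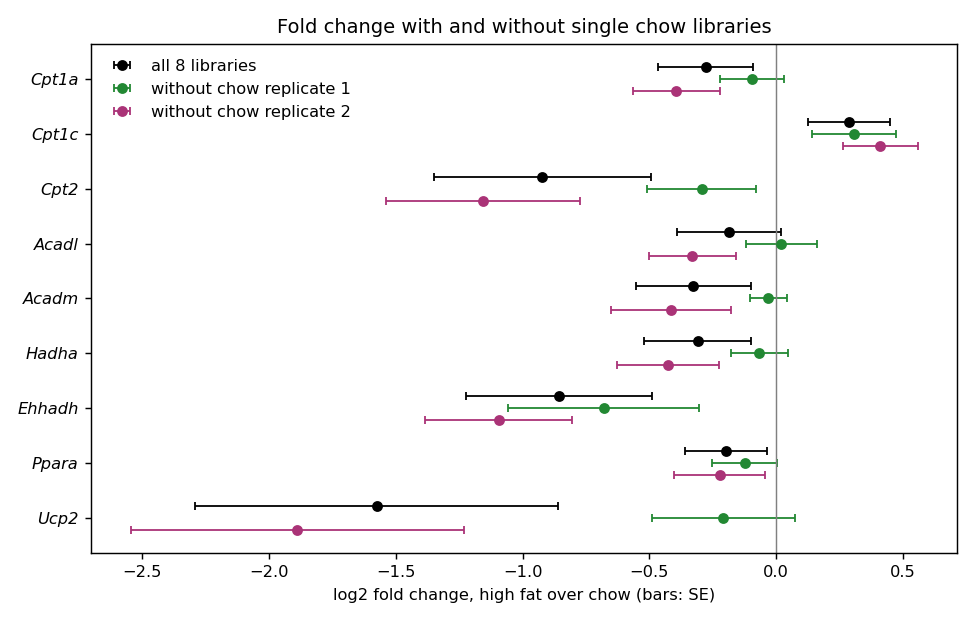
log2 fold change of high fat over chow with its SE from edgeR for all 8 libraries, without chow replicate 1 and without chow replicate 2. Without chow replicate 1 the folds of Ucp2 and Cpt2 go from -1.57 to -0.21 and from -0.92 to -0.29. Cpt1c is between 0.29 and 0.41 in the 3 settings shown, and at 0.082 with chow replicates 5 and 8 left out, which is not drawn.

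Levels were set side by side per kilobase of transcript, using a length implied by the deposited FPKM and counts, from 1.53 kb for Ucp2 to 7.17 kb for Ppara. With high fat diet the median level was 46.3 CPM per kb for Cpt1c, 32.6 for Hadha, 21.3 for Acadl, 21.3 for Ucp2 and 16.3 for Acadm. Below these came Cpt1a at 7.48, Cpt2 at 3.49, Ehhadh at 1.11 and Ppara at 0.870 CPM per kb. In this order Acadl and Ucp2, Ucp2 and Acadm, and Ehhadh and Ppara overlapped over the 4 libraries, and the other neighbours did not. With chow the medians were 37.5 for Cpt1c, 35.1 for Hadha, 29.0 for Ucp2, 23.4 for Acadl and 17.1 for Acadm, followed by Cpt1a at 8.44, Cpt2 at 4.73, Ehhadh at 2.21 and Ppara at 0.933 CPM per kb. There only the neighbours Acadm and Cpt1a, and Cpt2 and Ehhadh, had ranges that did not overlap. Ucp2 in chow replicate 1, at 185 CPM per kb, was the highest level of any of the 9 genes in any library.

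**Figure D4:**
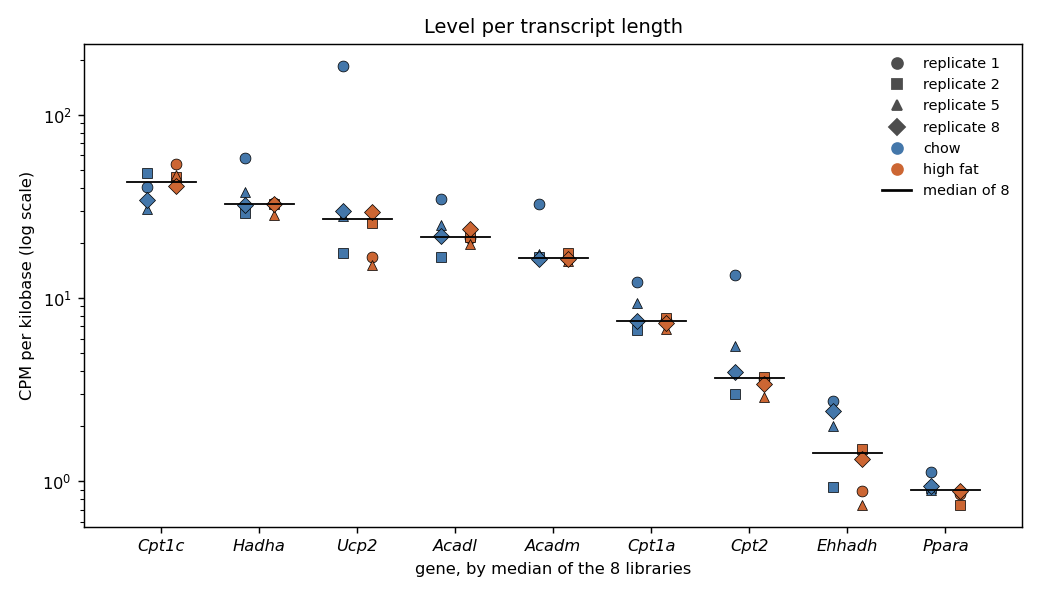
CPM per kilobase of implied transcript length (log axis) of each gene in every library, ordered by the median of the 8 (black line), with colours for diet and symbols for title numbers. Medians run from 43.1 for Cpt1c to 0.898 for Ppara, and Ucp2 has the widest spread, 15.2 to 185.

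The libraries were also compared by how the genes varied with each other. This is a description over 8 libraries that differ in diet and in tissue markers, with chow replicate 1 the highest for all genes but Cpt1c. Pearson's r of log2 CPM was above 0 for 28 of the 28 pairs without Cpt1c, from 0.461 to 0.990 with a median of 0.867. Without chow replicate 1 it was above 0 for 22 of the 28 pairs, with a median of 0.631. The other 6 pairs were all of Ppara, which over those 7 libraries had r from -0.58 with Acadm to 0.066 with Ehhadh, against 0.461 to 0.718 over 8. Cpt1c was below 0 against each of the other 8 genes, from -0.758 to -0.128 over 8 libraries and from -0.859 to -0.353 over 7.

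The tested genes most like each of the 9 were ranked by r of log2 CPM over the 8 libraries. For Ucp2 they were Odc1, Acads and Clpp, with r of 0.997, 0.995 and 0.995. For Cpt1c they were Gnaz, Plppr2 and Top1mt, with 0.996, 0.995 and 0.995, and r for Gnaz was 0.999 without chow replicate 1. For Ehhadh they were Itgb1bp1, Fcgr3 and Rap1gap (0.985, 0.984 and 0.982), and for Ppara Trmt2a, Plac9b and Slc13a5 (0.968, 0.956 and 0.946). For Cpt1a they were Itgb5, Mapk8ip1 and Mrpl17 (0.990, 0.985 and 0.985), and for Cpt2 Ctsa, Scrn2 and Szrd1 (0.997, 0.994 and 0.993). For Acadl they were Trim26, Psmc5 and Rubcnl (0.997, 0.987 and 0.987), and for Hadha Mthfd1, Kars and Nagpa (0.995, 0.993 and 0.992). Acadm differed from the rest in how much its likeness rested on chow replicate 1: Tfe3, Atp5g1 and Serf2 had 0.993, 0.993 and 0.989 over 8 libraries and 0.788, 0.716 and 0.683 over 7.

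Other genes of the pathway were described by list, and 0 members of any list passed the threshold in either direction (0% of all tested genes passed). Of the 16 other genes of mitochondrial beta-oxidation, 14 had negative log2 folds with a median of -0.31, and the median was -0.11 without chow replicate 1. That library was the highest for 13 of them, and for 33.2% of all tested genes. At an unadjusted p under 0.05 by edgeR there were 2, Hadh and Acad11, beside 4.27% of all tested genes. The peroxisomal list had 2 of 12 at that level (Acox3 and Pex5), the PPAR regulators 1 of 12 (Ppard) and the PPARA targets 1 of 7 (Creb3l3). The remaining lists had 0. Hadh, the short-chain hydroxyacyl-CoA dehydrogenase, was at 24.0 to 29.5 CPM with high fat diet and at 63.3, 24.7, 39.8 and 35.2 CPM with chow, with a log2 fold of -0.67 ± 0.26 (SE; adjusted p = 0.753 by edgeR). Acad11, an acyl-CoA dehydrogenase family member, was at 21.6 to 25.5 and 26.5 to 32.4 CPM, diets that did not overlap (as for 1 of the 16, beside 1.36% of all tested genes), with -0.31 ± 0.12 (adjusted p = 0.753). Of the 8 carnitine shuttle and malonyl-CoA genes, 8 had negative folds with a median of -0.11. Slc25a20, the carnitine-acylcarnitine carrier, and Acacb, the acetyl-CoA carboxylase of the outer membrane, had -0.39 ± 0.25 and -0.30 ± 0.19, and both were highest in chow replicate 1, at 22.5 and 11.5 CPM.

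Peroxisomal genes were mixed, with 7 of 12 tested members negative and a median of -0.10. The diets did not overlap for 2 of the 12, beside 1.36% of all tested genes, and one of them was Acox3, at 29.3 to 34.0 CPM with high fat diet and 34.5 to 47.2 CPM with chow. Acox3, a branched-chain acyl-CoA oxidase, had -0.32 ± 0.13 and Pex5, the peroxisomal import receptor, 0.30 ± 0.13 (adjusted p = 0.753 each by edgeR). Of 16 acyl-CoA synthesis and handling genes 10 were negative, with a median of -0.070, which was 0.10 without chow replicate 1. Acsl5, a long-chain acyl-CoA synthetase, had 0.37 ± 0.20 and Dbi, the acyl-CoA binding protein, -0.38 ± 0.21. When chow replicates 1 and 2 were both omitted, 1 gene over all lists passed, Acot2, a mitochondrial acyl-CoA thioesterase named after its value was seen, at 0.95 ± 0.19 (adjusted p = 0.0478 by edgeR), in a setting where 2.92% of all tested genes passed. Acot2 was at 16.3, 13.9, 11.9 and 13.7 CPM with high fat diet and 15.2, 11.98, 8.31 and 6.14 CPM with chow.

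Of the 12 PPAR regulators 3 were negative, with a median of 0.083, and of -0.040 without chow replicate 1. Ppard, the PPAR of wide distribution, was at 23.7 to 27.6 CPM with high fat diet and at 41.9, 25.7, 46.8 and 28.7 CPM with chow, with -0.46 ± 0.20 (adjusted p = 0.753 by edgeR). Ncor1, a corepressor of nuclear receptors, had 0.33 ± 0.25 and was lowest in chow replicate 1, at 107 CPM. Of 12 PPARA targets known from liver, 7 were tested and Cyp4a10, Cyp4a14, Vnn1, Fabp1 and Fgf21 did not pass the filter, with 0 to 20 counts in any library. The 7 had 4 negative folds and a median of -0.12, which was 0.41 without chow replicate 1. Plin2, a lipid droplet coat protein, had -0.50 ± 0.28. Creb3l3, a liver transcription factor, had 1.25 ± 0.51 at under 2 CPM in every library.

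Of 7 genes of ketone body metabolism 4 were negative, with a median of -0.077, and Slc16a7, a monocarboxylate transporter of neurons, had 0.53 ± 0.36. Of the other uncoupling protein relatives 4 were tested, 3 of them negative with a median of -0.11, and Ucp1, the uncoupling protein of brown fat, had 0 to 2 counts in any library. Ucp3, the muscle relative that lies beside Ucp2 in the mouse genome, was at 2.80 to 5.32 CPM with high fat diet and at 5.28, 2.87, 8.42 and 6.74 CPM with chow. Its log2 fold was -0.66 ± 0.35 (adjusted p = 0.753 by edgeR), and -0.72 without chow replicate 1. Unlike Ucp2, Ucp3 was highest in chow replicate 5. Slc25a14 had 0.16 ± 0.12.

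**Figure D5:**
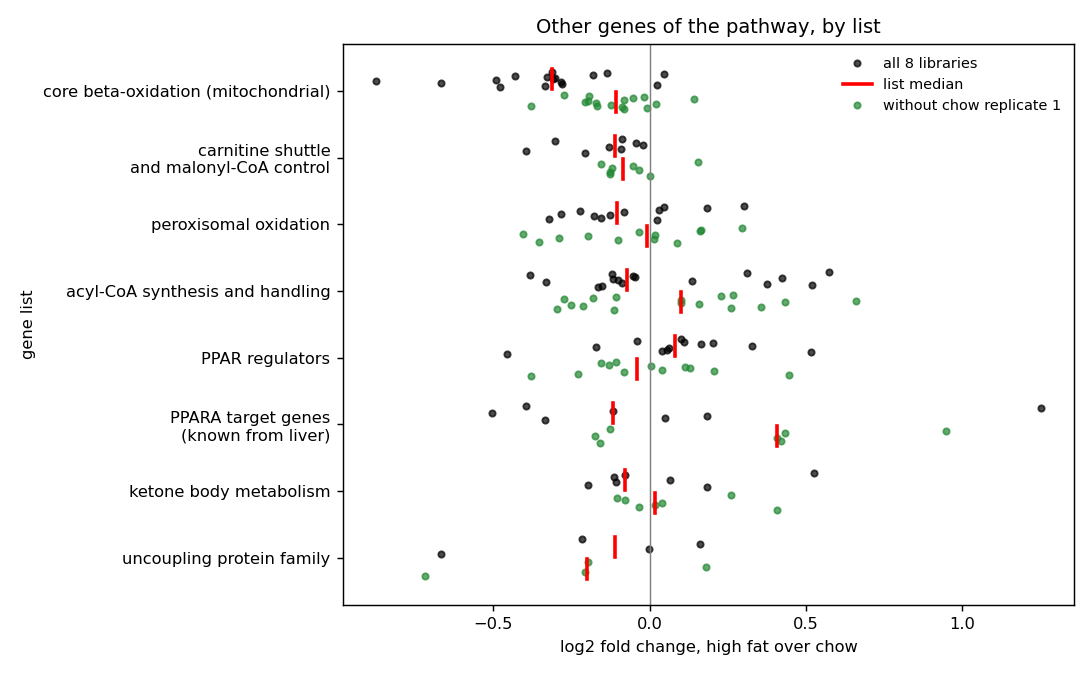
log2 fold change of high fat over chow for the other genes of the pathway by list, with all 8 libraries (black) and without chow replicate 1 (green), and the median of each list in red. The median of the mitochondrial list goes from -0.31 to -0.11, and that of the PPARA targets from -0.12 to 0.41.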

How the data were processed

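mRNA was selected with oligo(dT) beads, primed with random hexamers and sequenced as single-end reads on a BGISEQ-500 instrument, per the labels' protocols. The authors deposited 1 table of expected counts per gene and library, not normalized, and 35.2% of its values were not whole (tolerance 1e-06). Per the file headers it also holds, for each diet, the authors' mean FPKM and TPM. The submitters' processing notes name Bowtie2 2.2.5, RSEM 1.2.8 and mm10. Which annotation and which strand setting were used is not given in the sources.

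Counts were rounded, filtered with filterByExpr and scaled by TMM factors. Diets were compared in the 8 libraries with edgeR 4.0.16 (R 4.3.3) by a two-sided quasi-likelihood test with no covariate, adjusted over 15186 genes, with 0.05 as the threshold. The SE of a log2 fold is its size over the root of the F statistic. CPM uses TMM-scaled totals, and log2 CPM adds a prior count of 2. The implied transcript length is the mean CPM on unscaled totals over the deposited mean FPKM, averaged over the diets. Gene coordinates come from GENCODE M21 (GRCm38) and start windows from RefSeq. Fits were tested on simulated data.

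The 9 genes, the gene lists and the marker lists were chosen with earlier results of these data known, so their counts are descriptions. From each list the genes that passed were named (at most 4), or failing that the pair with the lowest p, and for each of the 9 the 3 genes most like it. A gene that this rule names is not reported here. The alternatives were RLE and upper-quartile factors, DESeq2 1.42.0, limma-voom (limma 3.58.1), a minimum sum of 1 count or a minimum mean of 50 in place of the filter, the title number as a block, an adjusted p under 0.1, and leaving out each library, chow replicates 5 and 8, or 1 and 2. Title numbers did not pair the libraries by the deviations from the diet means, so the block was kept as an alternative.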

Additional observations from a re-analysis of the deposited data

Results flagged for a closer look

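In groups of 4 libraries, a value was marked where its gap to the nearest of the others took a larger share of the group's range than Dixon's critical value, which chance gives in about 1 of 20 groups. Of 92 groups 8 were marked, 4 of them by chow replicate 1. In chow replicate 1, Ucp2 was at 283 CPM (26.8 to 45.4 CPM in the other chow libraries) and Acadm at 65.3 CPM (32.8 to 35.1 CPM). The PPARA targets summed to 109 CPM there (54.2 to 57.2 CPM), and ependymal markers to 248 CPM (26.3 to 41.2 CPM).

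High fat replicate 5 was the low value for Hadha, at 75.4 CPM beside 86.5 to 88.6 CPM, and for Slc25a20, at 8.87 CPM beside 11.9 to 12.4 CPM. Chow replicate 2 was marked for its excitatory neuron markers, at a summed 1939 CPM beside 185 to 425 CPM. It was also marked for its central amygdala neuron markers, at 1171 CPM beside 2709 to 2873 CPM.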

How the results depend on the processing

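None of the 9 genes passed in any setting run. All kept their direction except Acadl, whose log2 fold ran from -0.33 (without chow replicate 2) to 0.019 (without chow replicate 1) when 1 library was left out. Leaving out chow replicates 1 and 2 together gave 451 called genes in place of 0, and leaving out 1 library gave 0 to 116 (the latter without chow replicate 2). With the title number as a replicate block, 0 genes were called and 572 had an unadjusted p under 0.05. Same-numbered libraries deviated together with r of -0.043 to 0.39, and 2 of 8 libraries correlated best with their own number.

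Medians of lists moved by more than the spread between libraries in some settings, and their cause was not tested. Leaving out 1 library, the peroxisomal median ran from -0.20 to -0.0095, that of acyl-CoA handling from -0.13 to 0.10, that of PPARA targets from -0.28 to 0.41 and that of ketone genes from -0.14 to 0.051. Without chow replicates 5 and 8, carnitine, acyl-CoA handling and PPARA target medians were -0.28, 0.072 and -0.51. Without chow replicates 1 and 2 acyl-CoA handling was at 0.056, with 1 gene called.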
